A study of Mus musculus with 12 samples.

Results

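The cytochromes P450 of families 1 to 4, the haem enzymes with which the liver oxidises drugs, steroids, fatty acids and other small molecules, were followed at the transcript level in mice given excess glucocorticoid with or without the glucocorticoid receptor in muscle. Members were all genes of the liver files whose symbol was *Cyp* followed by a number from 1 to 4, 1 subfamily letter and a gene number, and which reached 1 CPM (the count relative to the library total) in at least 1 liver library. Of 75 symbols of this form among 22252 liver entries, 55 reached 1 CPM and 20 did not. The lowest members at their highest library were *Cyp2s1* at 1.10 CPM and *Cyp1b1* at 1.12 CPM, and the nearest genes outside were *Cyp4f39* at 0.391 CPM and *Cyp3a44* at 0.293 CPM. A further 6 symbols of these families end in a letter and so did not have this form, of which 3 reached 1 CPM and are named where they bear on a group.

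The mice were C57BL/6J males with both copies of *Nr3c1*, which encodes the glucocorticoid receptor, floxed, and they either lacked Cre (GRf/f) or had Cre under the skeletal actin promoter, which removes the receptor from skeletal muscle but not from liver (GRmKO). Treatment began at 8 weeks of age and lasted 4 weeks, in drinking water that held 1% ethanol alone (vehicle) or together with 100 µg/mL of the natural rodent glucocorticoid corticosterone (CORT). Each of the 4 liver groups, GRf/f vehicle, GRf/f CORT, GRmKO vehicle and GRmKO CORT, was 1 RNA-seq library made from a pool of 3 mice, as were the 4 groups of gastrocnemius muscle and the 4 of gonadal white adipose tissue (WAT). No group had a replicate, so no p-value is given, and a gene was called higher or lower where the log2 change, after 0.5 CPM had been added to both libraries, reached 1 (2-fold). The verbs rose and fell are used here only for changes of this size. Liver libraries held 20471247 to 20940660 estimated counts, at which 3 counts, taken as the floor, equal 0.143 to 0.147 CPM. The range given beside a log2 change is the 95% exact (Clopper-Pearson) counting interval of the ratio of 2 libraries, computed without the added 0.5 CPM, and for genes with few counts they can lie beyond the change itself. These intervals cover counting error only and leave out the spread between mice and between pools.

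P450 enzymes of families 1 to 3 carry out most oxidation of drugs and other foreign compounds, whereas many of family 4 hydroxylate fatty acids at the end of the chain. They take electrons from NADPH through P450 reductase and need haem at the active site. Their genes are set by ligand-activated receptors, chiefly the aryl hydrocarbon receptor (AHR) for *Cyp1*, the constitutive androstane receptor (CAR, *Nr1i3*) and pregnane X receptor (PXR, *Nr1i2*) for *Cyp2b*, *Cyp2c* and *Cyp3a*, and PPAR-alpha (*Ppara*) for *Cyp4a*, and in mice several are also expressed differently in males and females.

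The members made up a large part of liver mRNA. Their summed level was 26728 CPM in GRf/f vehicle, 34497 CPM in GRf/f CORT, 29050 CPM in GRmKO vehicle and 27664 CPM in GRmKO CORT liver, or 2.67%, 3.45%, 2.90% and 2.77% of the library. The GRf/f CORT library was the highest of the 4, and the others lay close together. *Cyp2e1*, which oxidises ethanol and other small molecules, held the largest share of that sum in both vehicle libraries, 32.7% in GRf/f and 29.97% in GRmKO mice, and 10.3% and 13.95% in the corresponding CORT libraries. Of the 55 members, 45 stood at 1 CPM or more in all 4 libraries, 41 reached 10 CPM, 31 reached 100 CPM and 12 reached 1000 CPM in at least 1 library.

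**Figure D1:**
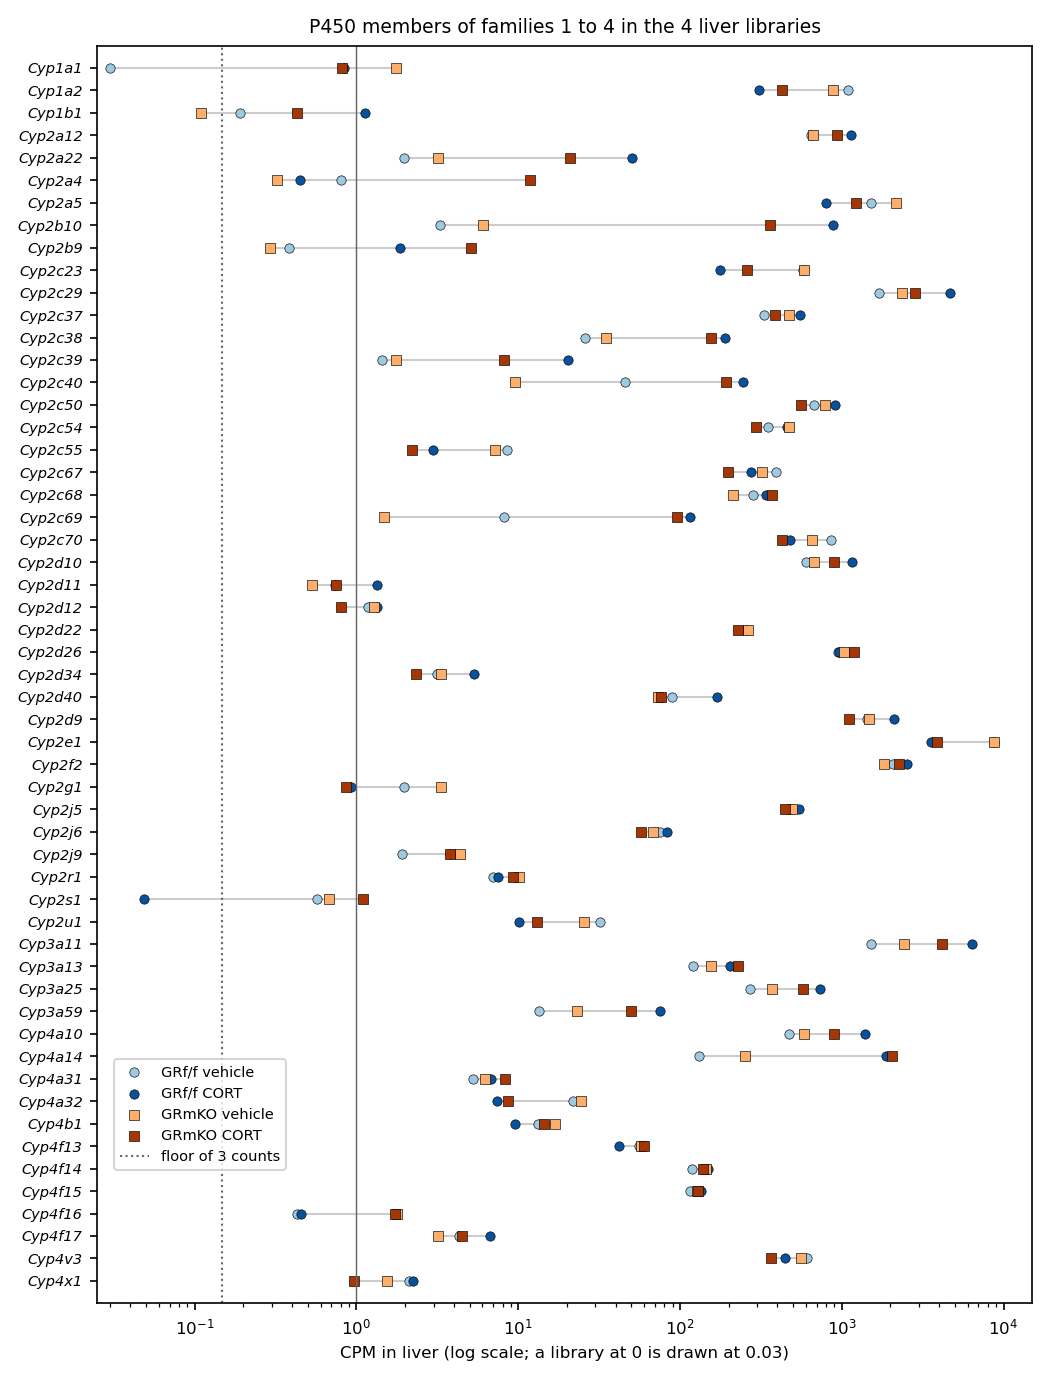
CPM of each of the 55 members (rows, by subfamily) in the 4 liver libraries on a log axis, with circles for GRf/f, squares for GRmKO, pale colours for vehicle and dark colours for CORT; the solid line marks 1 CPM and the dotted line the floor of 3 counts. *Cyp2b10*, *Cyp2c69* and *Cyp4a14* show both dark symbols far to the right of both pale ones, and *Cyp2e1* and *Cyp1a2* show the reverse.

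Levels can be compared between genes only per length, here that of the transcript whose ID the entry carries. In CPM per kilobase, the highest members in GRf/f vehicle liver were *Cyp2e1* at 4767, *Cyp2f2* at 1117, *Cyp2c29* at 949, *Cyp2d9* at 837, *Cyp2a5* at 750.3 and *Cyp3a11* at 643. In GRf/f CORT liver *Cyp3a11* (2724) and *Cyp2c29* (2620) stood above *Cyp2e1* (1940), whereas in GRmKO CORT liver *Cyp2e1* (2105) remained first, followed by *Cyp3a11* (1789) and *Cyp2c29* (1583). *Cyp1a2* moved from rank 7 to rank 20 in GRf/f mice and from rank 8 to rank 15 in GRmKO mice.

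**Figure D2:**
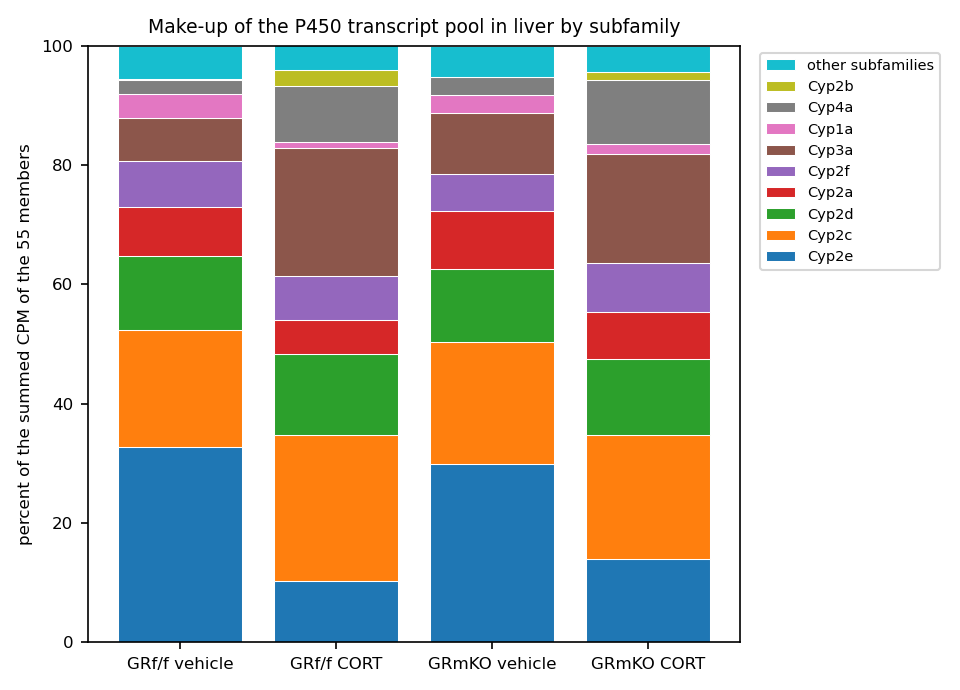
Each bar is 1 liver library and shows the percentage of the summed CPM of the 55 members held by each subfamily, with the smaller subfamilies joined as other. From vehicle to CORT the *Cyp2e* share is smaller (32.7% to 10.3% in GRf/f, 29.97% to 13.95% in GRmKO) and the *Cyp3a* share larger (7.16% to 21.5% and 10.3% to 18.3%).

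To ask which P450 transcripts respond to CORT, CORT and vehicle liver were compared within each genotype. In GRf/f mice 15 members rose (27.3% of the 55, where 7.54% of the 11627 liver entries at 1 CPM or more did) and 6 fell (10.9%, against 7.71%), and the median log2 change of the members was 0.34, beside 0.00 over those entries. The members that rose came mainly from subfamilies 2b, 2c, 3a and 4a, and those that fell were *Cyp1a2*, *Cyp2c23*, *Cyp2u1*, *Cyp4a32*, *Cyp2c55* and *Cyp2e1*. In GRmKO mice 10 members rose (18.2%, against 4.45% of entries) and 6 fell (10.9%, against 4.35%), with a median of 0.02 beside 0.05. Of the members that rose, 9 did so in both genotypes (60% of those in GRf/f and 90% of those in GRmKO), and 5 of the members that fell did so in both (83.3% of each). The CORT comparisons of the 2 genotypes use separate libraries. The same overlap over all called liver entries is not given, so the shared calls are a description of these members and not a trait of the family. In whole liver, fewer cells of a type and less RNA per cell cannot be told apart.

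The largest change belonged to *Cyp2b10*, the classical target of CAR (chromosome 7, 25897620 to 25926624, plus strand, 9 exons, build GRCm38). It stood at 3.30 CPM in GRf/f vehicle, 877 CPM in GRf/f CORT, 6.10 CPM in GRmKO vehicle and 362 CPM in GRmKO CORT liver. Both CORT libraries stood far above both vehicle libraries, and of the CORT libraries that of GRf/f mice was the higher. The log2 change was 7.85 (7.72 to 8.42) in GRf/f and 5.78 (5.64 to 6.16) in GRmKO mice, and under CORT the GRmKO level was lower than the GRf/f level by a log2 change of -1.27 (-1.31 to -1.24). *Cyp2b9*, a neighbouring gene expressed mainly in females, stood at 0.382, 1.86, 0.291 and 5.10 CPM in the same order of libraries. It was low throughout but past 2-fold in both genotypes, at 1.42 (1.16 to 3.59) and 2.82 (2.97 to 5.62), and it was higher in GRmKO than in GRf/f CORT liver by 1.25 (0.91 to 2.03). In the sum of this subfamily, which does not depend on how reads are split between its members, the 4 libraries stood at 3.68, 879, 6.39 and 368 CPM.

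In subfamily 3a, whose *Cyp3a11* is a PXR target and the main drug-metabolising P450 of its family in mouse liver, 3 of 4 members rose in GRf/f mice and 1 of 4 in GRmKO mice. *Cyp3a11* (chromosome 5, 145854426 to 145879964, minus strand, 13 exons) stood at 1507 CPM in GRf/f vehicle, 6386 CPM in GRf/f CORT, 2438 CPM in GRmKO vehicle and 4194 CPM in GRmKO CORT liver. The CORT libraries were again the higher pair, but the GRmKO libraries lay inside the GRf/f range on both sides. Its log2 change was 2.08 (2.07 to 2.10) in GRf/f mice, and 0.78 (0.77 to 0.80), short of 2-fold, in GRmKO mice. *Cyp3a25* stood at 272, 735, 369 and 579 CPM, with log2 changes of 1.43 (1.39 to 1.48) and 0.65 (0.61 to 0.69). *Cyp3a59* stood at 13.5, 75.4, 23.1 and 49.8 CPM, and rose in both genotypes, by 2.44 (2.30 to 2.67) and 1.09 (0.95 to 1.27). These last genes share 42.1% and 42.3% of their 31-base words with each other, so reads may have been split between them, and their sum changed by 1.505 in GRf/f and 0.68 in GRmKO mice. The fourth member, *Cyp3a13*, had log2 changes of 0.77 and 0.56.

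Subfamily 4a holds fatty acid hydroxylases that are textbook targets of PPAR-alpha. *Cyp4a14* (chromosome 4, 115486200 to 115496142, minus strand, 12 exons) stood at 131 CPM in GRf/f vehicle, 1869 CPM in GRf/f CORT, 253 CPM in GRmKO vehicle and 2052 CPM in GRmKO CORT liver. Both CORT libraries were near one another and above both vehicle libraries, and the change was 3.83 (3.78 to 3.90) in GRf/f and 3.02 (2.98 to 3.06) in GRmKO mice. *Cyp4a10* stood at 471, 1396, 584 and 899.7 CPM. It rose in GRf/f mice by 1.57 (1.54 to 1.60) and was at 0.62 (0.59 to 0.66), short of 2-fold, in GRmKO mice. *Cyp4a32* went the other way in both genotypes, from 21.95 to 7.36 CPM and from 24.3 to 8.69 CPM, log2 changes of -1.51 (-1.85 to -1.31) and -1.43 (-1.73 to -1.23). *Cyp4a32* shares 51.2% of its words with *Cyp4a10*, whereas *Cyp4a14* holds 98.5% of its words alone. *Cyp4a31*, the remaining member, stood between 5.29 and 8.32 CPM in all 4 libraries. The sum of these 4 members was 628 CPM and 3280 CPM in GRf/f and 867 CPM and 2969 CPM in GRmKO mice. It is not that of the whole subfamily, because *Cyp4a12a* and *Cyp4a12b* have symbols outside the membership rule. Together those 2 genes went the other way, from 1042 to 363 CPM in GRf/f and from 730 to 299 CPM in GRmKO mice.

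Subfamily 2c was the largest, with 13 members, of which 12 lie together in 1.18 Mb of chromosome 19 (39007019 to 40187333) and *Cyp2c23* lies apart at 44005022 to 44029208. Its enzymes metabolise drugs, and several make epoxides of arachidonic acid. In GRf/f mice 5 rose and 2 fell, and in GRmKO mice 4 rose and 2 fell. *Cyp2c29*, the most abundant, stood at 1692 CPM in GRf/f vehicle, 4671 CPM in GRf/f CORT, 2358 CPM in GRmKO vehicle and 2823 CPM in GRmKO CORT liver. It was highest by far in the GRf/f CORT library, with a log2 change of 1.46 (1.45 to 1.48) in GRf/f mice and 0.26 (0.24 to 0.28) in GRmKO mice. *Cyp2c38* stood at 25.7, 189.7, 35.1 and 156 CPM and rose in both genotypes, by 2.86 (2.75 to 3.01) and 2.14 (2.04 to 2.27). *Cyp2c39* stood at 1.44, 20.4, 1.75 and 8.22 CPM and also rose in both, by 3.43 (3.29 to 4.42) and 1.95 (1.72 to 2.80).

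Outside the cluster, *Cyp2c23*, an epoxygenase, stood at 572, 177, 584 and 258 CPM. Both CORT libraries were below both vehicle libraries, with log2 changes of -1.69 (-1.75 to -1.64) and -1.18 (-1.22 to -1.13). *Cyp2c55*, the first gene of the cluster by coordinate, stood at 8.55, 2.98, 7.17 and 2.21 CPM, changes of -1.38 (-1.96 to -1.09) and -1.50 (-2.20 to -1.20). *Cyp2c70*, which hydroxylates bile acids, stood at 855, 480.4, 659 and 424 CPM, changes of -0.83 and -0.63 that did not reach 2-fold. *Cyp2c37*, *Cyp2c50* and *Cyp2c54* share much of their sequence, and their sum was 1356, 1916, 1734 and 1244 CPM, log2 changes of 0.50 in GRf/f and -0.48 in GRmKO mice.

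*Cyp2c40* and *Cyp2c69*, neighbours on the minus strand that female mice express more than males, rose in both genotypes. *Cyp2c40* stood at 45.7 CPM in GRf/f vehicle, 246 CPM in GRf/f CORT, 9.49 CPM in GRmKO vehicle and 192 CPM in GRmKO CORT liver. *Cyp2c69* stood at 8.16, 116, 1.48 and 96.4 CPM. In each case the CORT libraries were near one another, and the GRmKO vehicle library was the lowest. The log2 changes with CORT were 2.41 (2.33 to 2.53) and 4.27 (4.13 to 4.55) for *Cyp2c40* and 3.75 (3.60 to 4.06) and 5.62 (5.50 to 6.57) for *Cyp2c69*, in GRf/f and GRmKO mice respectively. Their close relatives *Cyp2c67* (393, 275, 322 and 198 CPM) and *Cyp2c68* (283, 340.2, 214 and 373 CPM) lay within 2-fold in every comparison. Only 15.5% of the 31-base words of *Cyp2c40* occur in no other gene, and 53.3% occur in *Cyp2c67*, so its level in particular depends on how reads were assigned. The sum of the 4 genes was 731, 977, 547 and 859 CPM, log2 changes of 0.42 in GRf/f and 0.65 in GRmKO mice, both short of 2-fold.

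The promoters of these 4 genes are shown because genes that moved apart start from almost the same sequence. Each window is from RefSeq on GRCm38.p6 and runs on the minus strand from 250 bases before the gene's start to 50 after it. They lie at chr19:39812765-39813064 for *Cyp2c40*, chr19:39886720-39887019 for *Cyp2c69*, chr19:39741052-39741351 for *Cyp2c68* and chr19:39648993-39649292 for *Cyp2c67*. Capitals mark bases that differ from the aligned base of *Cyp2c40*, or in *Cyp2c40* itself, bases that differ from any of the other 3. Bases opposite a gap, or beyond the overlap of the windows, are in lower case.
Cyp2c40: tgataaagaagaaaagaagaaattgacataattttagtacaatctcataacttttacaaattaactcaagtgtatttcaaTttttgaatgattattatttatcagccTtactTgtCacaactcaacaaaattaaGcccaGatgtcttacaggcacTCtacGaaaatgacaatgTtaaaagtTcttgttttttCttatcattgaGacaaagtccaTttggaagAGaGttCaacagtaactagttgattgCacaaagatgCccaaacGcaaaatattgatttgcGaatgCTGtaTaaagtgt
Cyp2c69: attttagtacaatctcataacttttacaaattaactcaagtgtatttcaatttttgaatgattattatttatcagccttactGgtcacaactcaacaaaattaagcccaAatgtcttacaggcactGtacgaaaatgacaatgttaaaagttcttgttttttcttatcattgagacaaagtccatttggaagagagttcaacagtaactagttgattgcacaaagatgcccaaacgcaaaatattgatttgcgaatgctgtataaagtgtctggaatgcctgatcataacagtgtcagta
Cyp2c68: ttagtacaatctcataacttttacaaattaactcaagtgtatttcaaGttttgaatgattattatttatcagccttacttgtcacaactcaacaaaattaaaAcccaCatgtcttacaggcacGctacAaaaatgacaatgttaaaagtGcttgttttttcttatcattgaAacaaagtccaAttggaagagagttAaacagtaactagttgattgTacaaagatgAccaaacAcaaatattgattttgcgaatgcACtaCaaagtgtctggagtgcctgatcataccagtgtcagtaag
Cyp2c67: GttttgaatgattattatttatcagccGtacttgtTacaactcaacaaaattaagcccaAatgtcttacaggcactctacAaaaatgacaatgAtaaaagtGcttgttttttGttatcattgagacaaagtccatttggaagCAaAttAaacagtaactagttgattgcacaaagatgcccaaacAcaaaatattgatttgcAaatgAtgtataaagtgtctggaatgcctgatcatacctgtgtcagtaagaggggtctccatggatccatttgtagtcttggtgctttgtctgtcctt
Over the stretch that both windows cover, *Cyp2c69* matched *Cyp2c40* at 267 of 270 bases, *Cyp2c68* at 251 of 269 and *Cyp2c67* at 205 of 220. The TATA motif TATAAA was found in the windows of *Cyp2c40*, *Cyp2c69* and *Cyp2c67* and not in that of *Cyp2c68*. These matches are descriptions of the windows and were not measured in these libraries.

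In subfamily 2a, *Cyp2a5*, the mouse coumarin hydroxylase, stood at 1510.3 CPM in GRf/f vehicle, 800.4 CPM in GRf/f CORT, 2167 CPM in GRmKO vehicle and 1222 CPM in GRmKO CORT liver. The CORT library was the lower in each genotype, but the changes of -0.92 (-0.94 to -0.89) and -0.83 (-0.85 to -0.80) were short of 2-fold. *Cyp2a4*, a steroid hydroxylase that is female-biased in mice and whose coding sequence is nearly that of *Cyp2a5*, stood at 0.805, 0.449, 0.322 and 11.8 CPM. It was high only in the GRmKO CORT library, where it was above the GRmKO vehicle library by 3.90 (4.06 to 6.45) and above the GRf/f CORT library by 3.70 (3.80 to 5.89). Even there it was far below *Cyp2a5*, with which it shares 55.9% of its words, and the sum of both was 1511, 801, 2167 and 1234 CPM. *Cyp2a22* stood at 1.98, 50.4, 3.17 and 20.9 CPM, was high in both CORT libraries, and rose by 4.36 (4.24 to 5.17) and 2.54 (2.34 to 3.11). It shares 38.8% of its words with the far more abundant *Cyp2a12*, which stood at 650.2, 1144, 665 and 938 CPM, changes of 0.81 and 0.50.

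The promoter windows of *Cyp2a5* (chr7:26835089-26835388, plus strand) and *Cyp2a4* (chr7:26306942-26307241, plus strand), taken in the same way, are shown because these genes differed in level and in change while their windows matched at 294 of 299 bases. Capitals mark the 5 bases that differ between them.
Cyp2a5: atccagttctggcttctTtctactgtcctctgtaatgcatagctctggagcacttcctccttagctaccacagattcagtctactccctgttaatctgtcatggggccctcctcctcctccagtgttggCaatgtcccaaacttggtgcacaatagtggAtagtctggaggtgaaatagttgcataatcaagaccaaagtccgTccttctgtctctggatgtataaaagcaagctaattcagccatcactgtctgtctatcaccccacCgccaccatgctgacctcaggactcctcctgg
Cyp2a4: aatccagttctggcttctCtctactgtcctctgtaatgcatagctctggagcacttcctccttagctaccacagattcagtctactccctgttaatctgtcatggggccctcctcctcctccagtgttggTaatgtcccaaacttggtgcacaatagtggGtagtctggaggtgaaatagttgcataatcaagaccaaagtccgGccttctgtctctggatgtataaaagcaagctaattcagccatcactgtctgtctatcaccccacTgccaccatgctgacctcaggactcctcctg
Both hold TATAAA and AGGTCA, which many nuclear receptors bind.

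Across the families a promoter window could be matched for 43 of the 55 members, 1 window a gene, searched on both strands. Where a gene had several windows the most upstream was taken, which need not be that of the counted transcript. For *Cyp2c39* it starts at chr19:39347096, far before the gene start of 39510862, and its AGGTCA is in the count below. TATAAA was found in 22 (51.2%, against 14.2% of 27025 mouse genes), AGGTCA in 12 (27.9%, against 15.98%) and GCGTG, the core that AHR binds, in 9 (20.93%, against 32.5%). TTCNNNGAA, the form bound by STAT5, was found in 2 (4.65%, against 8.42%), and the palindrome bound by the glucocorticoid receptor in none (against 0.459%), which says only that these letters are not in these windows. None of these motifs contains another, although single matches may overlap.

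Among the other members that fell, *Cyp2e1* (chromosome 7, 140763739 to 140774987, plus strand, 9 exons) stood at 8738 CPM in GRf/f vehicle, 3557 CPM in GRf/f CORT, 8707 CPM in GRmKO vehicle and 3858 CPM in GRmKO CORT liver. The vehicle libraries were nearly equal and so were the CORT libraries, and the changes were -1.30 (-1.31 to -1.28) and -1.17 (-1.19 to -1.16). *Cyp1a2*, an AHR target that oxidises caffeine (chromosome 9, 57676937 to 57683703, minus strand, 7 exons), stood at 1098, 310.1, 877 and 429.8 CPM. Both CORT libraries were below both vehicle libraries, by -1.82 (-1.86 to -1.78) in GRf/f and -1.03 (-1.07 to -0.99) in GRmKO mice. *Cyp2u1*, a fatty acid hydroxylase, stood at 31.9, 10.1, 25.7 and 13.0 CPM and fell by 1.61 on the log2 scale (-1.88 to -1.42) in GRf/f mice, and in GRmKO mice it was at -0.95 (-1.19 to -0.76), which passes 2-fold when libraries are scaled by TMM or median-of-ratios factors. *Cyp2g1*, best known from the nose, stood at 1.959, 0.928, 3.34 and 0.865 CPM and passed 2-fold only in GRmKO mice, at -1.49 (-2.78 to -1.18).

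The 2 remaining members of family 1 were near the floor. *Cyp1a1*, the AHR target induced most strongly by dioxin, had no count in GRf/f vehicle and stood at 0.834 CPM in GRf/f CORT, 1.75 CPM in GRmKO vehicle and 0.817 CPM in GRmKO CORT liver. Against the floor of 3 counts per library this is at least 5.82-fold higher in GRf/f CORT and at least 12.2-fold higher in GRmKO vehicle than in GRf/f vehicle liver, on few counts. *Cyp1b1*, which in liver is expressed mainly outside hepatocytes, stood at 0.191, 1.12, 0.109 and 0.432 CPM and passed 2-fold in GRf/f mice, at 1.23 (1.01 to 4.55), a call that is lost when 1 CPM is added in place of 0.5.

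No member of subfamilies 2d, 2f, 2j, 2r, 4b, 4f, 4v and 4x passed 2-fold with CORT in either genotype, nor did *Cyp2s1*. *Cyp2d9*, a steroid hydroxylase of male liver, stood at 1433, 2107, 1478 and 1112 CPM, highest in the GRf/f CORT library and lowest in the GRmKO CORT library. *Cyp2f2*, a P450 of periportal hepatocytes, stood at 2084, 2534, 1815 and 2259.9 CPM, and *Cyp2d26* at 953, 963, 1025 and 1188 CPM, both nearly level. *Cyp2d10* stood at 604, 1159, 674 and 898 CPM, changes of 0.94 (0.91 to 0.97) and 0.42 (0.38 to 0.45). *Cyp2j5*, an epoxygenase, stood between 448 and 545 CPM, *Cyp4v3*, a fatty acid hydroxylase, between 367 and 606 CPM, and *Cyp2r1*, the main vitamin D 25-hydroxylase of liver, between 6.98 and 10.2 CPM. *Cyp4f14* and *Cyp4f15*, which metabolise leukotrienes and related fatty acids, lay between 115 and 148 CPM in all 4 libraries.

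**Figure D3:**
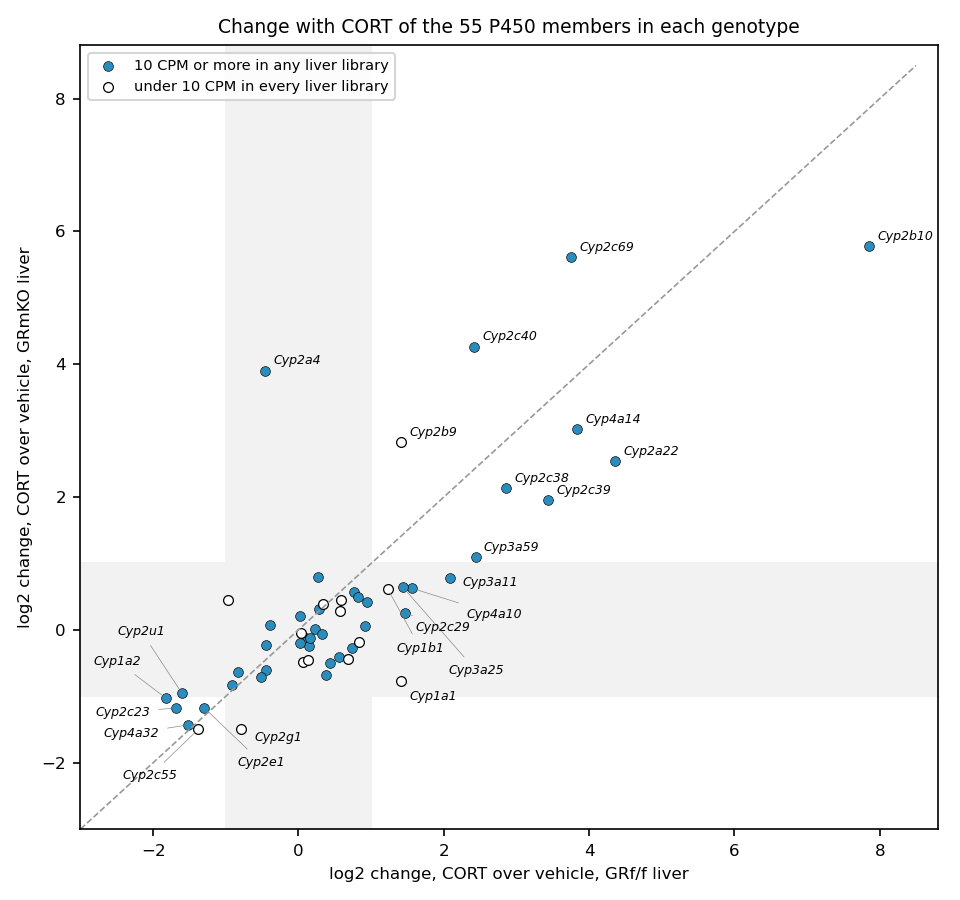
Each point is 1 of the 55 members, with the log2 change from vehicle to CORT in GRf/f liver on the x axis and in GRmKO liver on the y axis; grey bands mark changes under 2-fold and the dashed line equal change. Named points passed 2-fold in at least 1 genotype, and most of those to the right of the bands lie below the dashed line, with *Cyp2c40*, *Cyp2c69* and *Cyp2b9* above it.

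To ask whether the response to CORT differed with the muscle receptor, the log2 change in GRf/f mice was subtracted from that in GRmKO mice. Of the 15 members that rose in GRf/f mice, 12 had a smaller change in GRmKO mice, with a median difference of -0.94, and of the 6 that fell, 5 had a change smaller in size, with a median difference of 0.32. Those 21 were chosen by their change in GRf/f mice, and a chosen extreme tends to be less extreme elsewhere, so these counts are a description. Of 49 members with at least 10 counts in all 4 libraries, 12 had a difference of 1 or more in size, of which 10 were lower in GRmKO mice and 2, *Cyp2c40* at 1.85 (1.68 to 2.14) and *Cyp2c69* at 1.87 (1.64 to 2.77), were higher. The same share over all liver entries is not given, so whether this count is unusual for these libraries cannot be told. The ranges here are 95% Wald counting intervals, again computed without the added 0.5 CPM, so a low level such as that of *Cyp2c69* in GRmKO vehicle liver places the difference off their centre. The lower differences were, in order of size, *Cyp2b10* at -2.07 (-2.59 to -1.74), *Cyp2a22* at -1.81 (-2.53 to -1.36), *Cyp2c39* at -1.48 (-2.34 to -0.85), *Cyp3a59* at -1.35 (-1.61 to -1.13), *Cyp3a11* at -1.30 (-1.32 to -1.28) and *Cyp2c29* at -1.21 (-1.23 to -1.18), followed by *Cyp2d34*, *Cyp2c54*, *Cyp2j9* and *Cyp2c37* at -1.13 to -1.01. Differences near 0 were found for *Cyp2e1* (0.12, 0.11 to 0.14), *Cyp4a32* (0.08, -0.27 to 0.46) and *Cyp2f2* (0.03, 0.01 to 0.06). Across the 55 members the changes in the 2 genotypes had a Pearson correlation of 0.80 and a Spearman correlation of 0.75, where members share libraries, depth and in part their reads.

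The summed level followed the same comparison. It changed by a log2 ratio of 0.37 (0.36 to 0.37) in GRf/f and -0.07 (-0.08 to -0.07) in GRmKO mice. Without *Cyp2e1* the sums were 17990.0, 30940.3, 20343 and 23806 CPM, log2 ratios of 0.78 in GRf/f and 0.23 in GRmKO mice, so that the direction in GRmKO mice turned. The genotype ratio of the sum was 0.12 under vehicle and -0.32 under CORT.

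Comparing genotypes directly, under vehicle 3 members were higher in GRmKO liver (5.45%, against 2.57% of entries) and 2 were lower (3.64%, against 2.46%), and the median was 0.11 beside 0.03. Those lower were *Cyp2c40*, at -2.21 (-2.50 to -2.05), and *Cyp2c69*, at -2.13 (-3.05 to -1.89). Those higher, *Cyp1a1*, *Cyp4f16* at 1.31 (0.98 to 3.29) and *Cyp2j9* at 1.01 (0.63 to 1.76), stood under 5 CPM in every library, and *Cyp2j9* drops below 2-fold with TMM factors, which leaves 2 higher and 2 lower. Under CORT 4 members were higher in GRmKO liver (7.27%, against 4.04%) and 5 were lower (9.09%, against 3.56%), with a median of -0.28 beside 0.08. Those higher were *Cyp2a4*, *Cyp2b9*, *Cyp2s1* and *Cyp4f16*, each at 11.8 CPM or less. Those lower were *Cyp2b10*, *Cyp2c39* at -1.26 (-1.57 to -1.05), *Cyp2a22* at -1.25 (-1.43 to -1.10), *Cyp2d40* at -1.15 (-1.24 to -1.07) and *Cyp2d34* at -1.05 (-1.74 to -0.72). *Cyp2d40* stood at 89.6, 169, 72.9 and 76.2 CPM, so the GRf/f CORT library was the one that stood apart. *Cyp2d9* was at -0.92 (-0.95 to -0.90) in this comparison and passes 2-fold with TMM or median-of-ratios factors. Each of these comparisons shares its libraries with the CORT comparisons above.

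The members were also read by the lists to which they belong, which were written with earlier results of these data known, and the counts stand beside 7.54% of all entries higher and 7.71% lower in GRf/f and 4.45% and 4.35% in GRmKO mice. Of 10 P450 genes that female liver expresses more than male, 6 reached 1 CPM, and of these 5 rose with CORT in GRf/f and 6 in GRmKO mice. *Cyp2a4*, *Cyp2b9* and *Cyp3a41a* reached 1 CPM only in CORT libraries, so the filter itself favoured a rise in them. The summed level of the list was 56.6 CPM in GRf/f vehicle, 387 CPM in GRf/f CORT, 13.5 CPM in GRmKO vehicle and 315 CPM in GRmKO CORT liver, most of it *Cyp2c40* and *Cyp2c69*. These hold only 15.5% and 34.1% of their 31-base words alone. Summed with their relatives *Cyp2c67* and *Cyp2c68*, they changed by log2 ratios of 0.42 in GRf/f and 0.65 in GRmKO mice. The size of the rise therefore depends on how reads were assigned. One of the 6, *Cyp3a41a*, has a symbol outside the membership rule and stood at 0.0479, 2.003, 0.0485 and 0.961 CPM. Only 0.148% of its 31-base words occur in no other gene and 96.1% occur in *Cyp3a41b*, which is listed at 0 in all 4 libraries, so which of these genes the counts belong to rests on how reads were assigned. Of 3 genes that male liver expresses more, *Cyp4a12a* (689, 210.1, 502 and 198 CPM) fell by 1.71 and 1.34 on the log2 scale in GRf/f and GRmKO mice and *Cyp4a12b* (354, 153, 228 and 101 CPM) by 1.21 and 1.17, whereas *Cyp2d9* was at 0.56 and -0.41. Both *Cyp4a12* genes also have symbols outside the rule. Of 4 PPAR-alpha targets, all of subfamily 4a, 2 rose and 1 fell in GRf/f and 1 rose and 1 fell in GRmKO mice. Of 5 CAR and PXR targets, 3 rose and *Cyp2c55* fell in GRf/f mice, and in GRmKO mice *Cyp2b10* rose and *Cyp2c55* fell. Of 11 arachidonic acid epoxygenases present by symbol out of 12 listed, 4 rose and 1 fell in GRf/f mice and 3 rose and 1 fell in GRmKO mice, with medians of 0.74 and -0.18. These counts and medians leave out *Cyp2c23*, the epoxygenase described above, which is not among the 11. It fell in both genotypes, with log2 changes of -1.69 and -1.18.

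The genes on which the P450s depend were examined next. Of 19 regulators, 1 rose (*Cux2*) and 5 fell (*Cebpb*, *Ppara*, *Onecut1*, *Foxa3* and *Nr0b2*) with CORT in GRf/f mice, and 1 rose (*Cux2*) and 2 fell (*Bcl6* and *Foxa3*) in GRmKO mice, beside the same shares of all entries. None passed 2-fold between genotypes under vehicle, and under CORT *Nr0b2* (1.58), *Cux2* (1.37) and *Cebpb* (1.04) were higher and *Bcl6* (-1.81) lower in GRmKO liver. The receptors CAR (*Nr1i3*: 51.2, 87.3, 71.8 and 87.6 CPM), PXR (*Nr1i2*: 48.8, 57.7, 56.2 and 49.4 CPM) and AHR (*Ahr*: 29.9, 26.8, 22.4 and 16.4 CPM) lay within 2-fold in every comparison. *Nr3c1*, the gene removed in muscle, stood at 58.0, 45.2, 60.8 and 49.6 CPM in these livers, with no comparison past 2-fold. *Ppara* stood at 32.4, 12.96, 29.9 and 19.7 CPM, lowest in the GRf/f CORT library, and fell in GRf/f mice by 1.29 on the log2 scale. Of its listed targets, *Cyp4a10* and *Cyp4a14* were higher in GRf/f CORT than in GRf/f vehicle liver. *Cyp4a32* was lower (-1.51) and *Cyp4a31* was within 2-fold (0.34). *Cebpb*, a liver transcription factor, stood at 167, 42.5, 159.5 and 87.7 CPM, changes of -1.96 and -0.86.

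The sex-biased repressors *Bcl6* and *Cux2* differed in direction. *Bcl6*, which is higher in male liver, stood at 35.5 CPM in GRf/f vehicle, 23.6 CPM in GRf/f CORT, 39.9 CPM in GRmKO vehicle and 6.38 CPM in GRmKO CORT liver. The GRmKO CORT library alone was far below the others, at -2.55 against its vehicle library. *Cux2*, which is higher in female liver, had no count in GRf/f vehicle and stood at 0.807, 0.486 and 2.88 CPM in the other libraries, at least 5.63-fold higher in GRf/f CORT than in GRf/f vehicle liver. It was highest in the GRmKO CORT library, 5.92 times the GRmKO vehicle level.

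*Alas1*, the rate-limiting enzyme of haem synthesis, stood at 485 CPM in GRf/f vehicle, 50.1 CPM in GRf/f CORT, 519.4 CPM in GRmKO vehicle and 275 CPM in GRmKO CORT liver. The GRf/f CORT library was lowest by far, with log2 changes of -3.26 in GRf/f and -0.92 in GRmKO mice and a genotype difference under CORT of 2.44. It was the only gene of 10 in haem synthesis and breakdown past 2-fold with CORT. *Uros*, a later enzyme of haem synthesis, differed between genotypes under CORT in the opposite direction, at -1.44 (-2.19 to -1.12), with 6.05, 6.16, 3.94 and 1.955 CPM in the 4 libraries. None of 5 electron transfer genes passed 2-fold in any comparison, and *Por*, the P450 reductase, stood at 535, 454, 597 and 482 CPM.

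**Figure D4:**
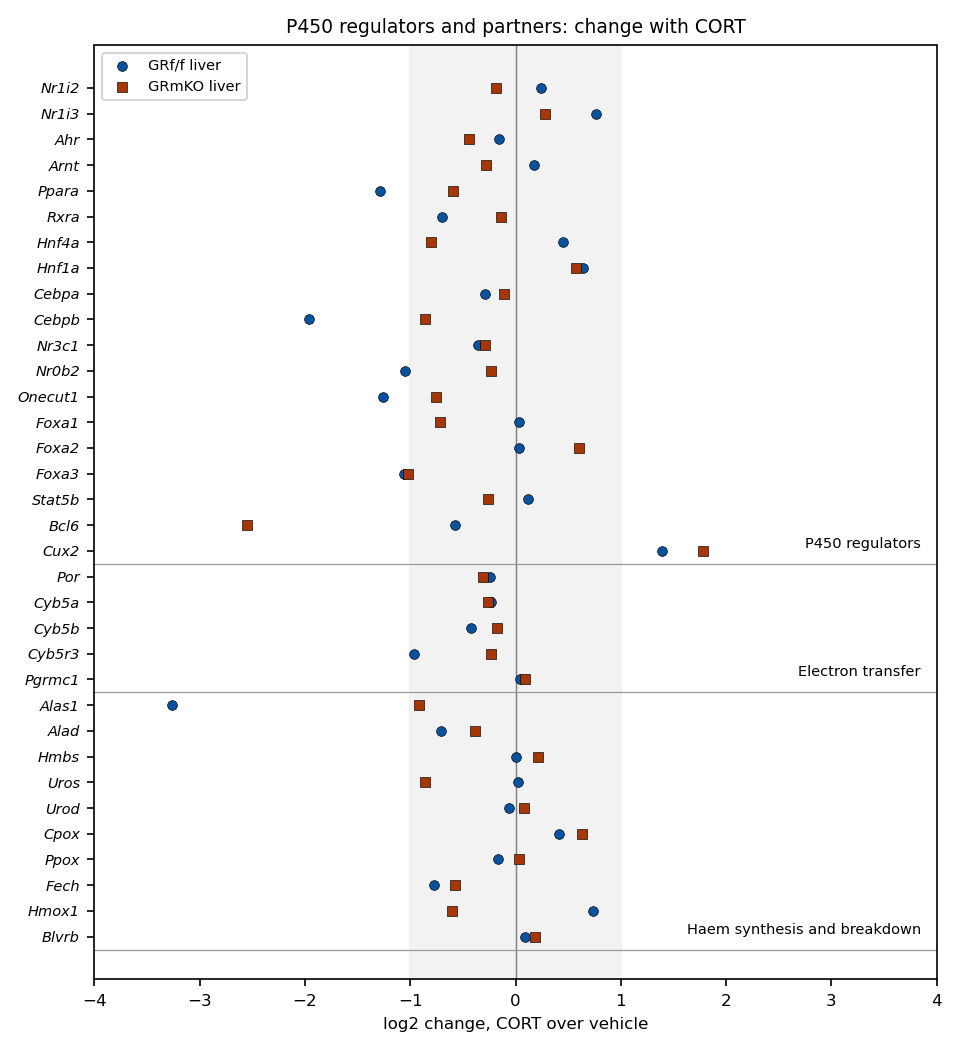
Log2 change from vehicle to CORT of 19 P450 regulators, 5 electron transfer genes and 10 genes of haem synthesis and breakdown (rows), with circles for GRf/f and squares for GRmKO liver; the grey band marks changes under 2-fold. *Alas1* in GRf/f (-3.26) and *Bcl6* in GRmKO liver (-2.55) lie farthest to the left, and *Cux2* lies to the right of the band in both genotypes.

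Markers of the liver's cell types were read beside these results. The 6 hepatocyte markers summed to 75164 CPM in GRf/f vehicle, 114440.0 CPM in GRf/f CORT, 95891 CPM in GRmKO vehicle and 139209 CPM in GRmKO CORT liver, so the tissue label held in all 4 libraries, and *Apoa1* alone among them passed 2-fold with CORT (lower, in GRf/f mice). *Cyp2e1* and *Cyp1a2* mark hepatocytes around the central vein, but of the other 6 pericentral markers only *Rhbg* passed 2-fold in GRf/f mice (higher) and only *Oat* in GRmKO mice (lower), and their sum was 1864, 1750.1, 1827 and 1624 CPM. Of 7 periportal markers other than *Cyp2f2*, *Pck1* fell in GRf/f mice and none passed 2-fold in GRmKO mice. With CORT in GRf/f mice 4 of 6 Kupffer cell markers were lower (sum 96.96 to 39.4 CPM), 2 of 5 endothelial markers were lower and 1 higher (136 to 72.1 CPM), and all 4 globin genes were lower (930.2 to 372 CPM), whereas in GRmKO mice none of these lists had a member past 2-fold and globin summed to 597 CPM under vehicle and 1062 CPM under CORT. The 5 stellate cell markers had none past 2-fold (147 and 147 CPM in GRf/f, 187 and 161 CPM in GRmKO mice), and of 5 cholangiocyte markers *Sox9* rose in GRf/f mice (sum 24.9 to 45.5 CPM). Adipocyte markers summed to at most 2.86 CPM and muscle markers to at most 4.22 CPM in a liver library, and of 4 pancreatic genes *Cela1* was at 7.93, 0.413, 5.92 and 0 CPM while *Cpa1* and *Pnlip* had no count and *Prss2* was at most at 0.0486 CPM. The part of these cell types in the P450 results was not tested.

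The same members were then read in gastrocnemius and gonadal WAT, where CPM are relative to the libraries of that tissue. In gastrocnemius 49 of the 55 were represented by the same transcript, 25 of these reached 1 CPM and 4 reached 10 CPM, and in WAT the numbers were 48, 22 and 12. Only *Cyp1a1*, *Cyp1b1*, *Cyp4f16* and *Cyp4x1*, at 3.29 CPM or less, reached a higher level in gastrocnemius than in liver, among the members with the same transcript. *Cyp2e1* in WAT stood at 5630 CPM in GRf/f vehicle, 4901 CPM in GRf/f CORT, 5824 CPM in GRmKO vehicle and 4877 CPM in GRmKO CORT mice. These levels are nearly equal, with log2 changes of -0.20 and -0.26, where in liver *Cyp2e1* fell in both genotypes. In gastrocnemius *Cyp2e1* stood at 39.0, 103, 49.8 and 91.1 CPM, log2 changes of 1.40 and 0.87. *Cyp2b10* in WAT stood at 0.902, 22.4, 0 and 20.7 CPM, high in both CORT libraries as in liver. *Cyp1b1*, which was near the floor in liver, stood at 30.1, 60.8, 31.6 and 55.8 CPM in WAT, and *Cyp4b1* at 71.0, 42.6, 88.3 and 50.3 CPM, so these genes and *Cyp1a1*, *Cyp2j9*, *Cyp2s1*, *Cyp4f16*, *Cyp4f17* and *Cyp4x1* reached a higher level in WAT than in liver. *Cyp3a11* in gastrocnemius stood at 0.151, 0.309, 2.10 and 10.8 CPM. The hepatocyte markers there summed to 6.04, 9.67, 76.5 and 257 CPM in the same libraries. *Cyp2a12*, *Cyp2c29*, *Cyp2d10* and *Cyp3a25*, among the 25 counted above, likewise reached 1 CPM only in GRmKO libraries of gastrocnemius. The part of hepatocyte transcripts in these muscle values was not tested.

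**Figure D5:**
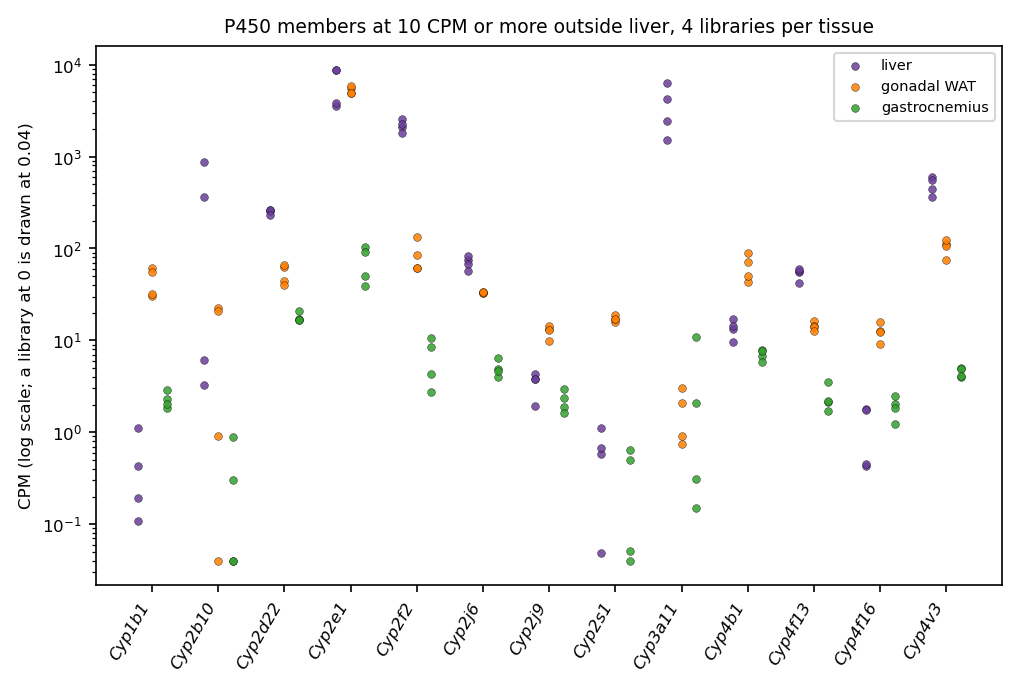
CPM on a log axis of the members at 10 CPM or more in a library of gastrocnemius or gonadal WAT and with the same transcript as in liver, with 1 point for each of the 4 libraries of a tissue. *Cyp2e1* in WAT lies near its liver level, *Cyp1b1*, *Cyp2s1*, *Cyp4b1* and *Cyp4f16* lie higher in WAT than in liver, and the remaining members lie higher in liver, except *Cyp2j9*.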

How the data were processed

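RNA from 3 mice was pooled for each of 12 libraries and read as paired 100-base reads. The authors quantified GENCODE M20 protein-coding transcripts (GRCm38) with Salmon 1.2.1 and deposited expected counts, scaled by tximport in R 3.5.0 (lengthScaledTPM). Where a gene name occurred more than once, the entry with the largest total was kept. Each entry carries 1 transcript ID, and for some members another ID in another tissue, but the tximport step named in the methods sums to genes, so whether a value also holds other transcripts of the gene is not settled, and levels per kilobase take it as that transcript alone. Deposited expected counts were used unrounded and divided by the library total to give CPM. Libraries held 19394572 to 20940660 counts.

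With 1 library per group no test was run, and the study's simulated replicates were not used. Calls used a fixed rule: 0.5 CPM added, 2-fold, 1 CPM or more in a library. Ratio intervals were exact (Clopper-Pearson, 95%), and differences of changes had Wald intervals at 10 or more counts. The scripts were tested on simulated data. Sequence sharing was the share of 31-base words of a member's transcript found in no other gene (GENCODE M21). Promoters came from RefSeq (GRCm38.p6). The named members were those past 2-fold and at 10 CPM or more, the highest per kilobase in each subfamily, and those at 1000 CPM or more, while members under 10 CPM that complete a count were named after their values were seen. The members and all gene lists were chosen with earlier results of these data known. Alternatives were TMM (edgeR 4.0.16) and median-of-ratios factors, other added CPM, fold thresholds and minimum levels. Python 3.11.15, numpy 2.4.6, pandas 2.3.3, scipy 1.17.1, biopython 1.88 and R 4.3.3 were used.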

Additional observations from a re-analysis of the deposited data

Results flagged for a closer look

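Some members changed in opposite directions with CORT in the 2 genotypes, each seen in 1 library per group, and the difference between genotypes was not tested. Only those whose log2 changes differed by 1 or more are listed. Others also had opposite signs, among them the abundant *Cyp2d9* (0.56 and -0.41) and *Cyp2c50* (0.43 and -0.49), which came just short of that difference. *Cyp1a1* had log2 changes of 1.42 in GRf/f and -0.77 in GRmKO liver, on few counts. *Cyp2a4* had changes of -0.46 and 3.90. *Cyp2c37* had changes of 0.74 and -0.28, and its close relative *Cyp2c54* had changes of 0.38 and -0.68. *Cyp2d34* had changes of 0.68 and -0.45, *Cyp2j9* of 0.84 and -0.18, and *Cyp2s1* of -0.97 and 0.44, all 3 under 10 CPM in every liver library. Of the 7, only *Cyp2a4* (in GRmKO) and *Cyp1a1* (in GRf/f) passed 2-fold, and the call of *Cyp1a1* is lost when 1 CPM is added in place of 0.5.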

How the results depend on the processing

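The numbers of members past 2-fold, 21 and 16 with CORT in GRf/f and GRmKO mice and 5 and 9 between genotypes under vehicle and CORT, became 32, 28, 11 and 19 at a 1.5-fold threshold and 12, 9, 3 and 1 at a 3-fold threshold, where 30.7%, 21.1%, 12.6% and 19.2% of all entries passed 1.5-fold (members 58.2%, 50.9%, 20% and 34.5%) and 6.63%, 4.22%, 2.64% and 3.06% passed 3-fold (members 21.8%, 16.4%, 5.45% and 1.82%). Under vehicle the 5 became 3 with 1 CPM added, 3 where the whole counting interval had to pass 2-fold, and 2 at a minimum of 5 CPM. The log2 ratios of the summed level (0.37, -0.07, 0.12 and -0.32 in the same order) were 0.36, -0.14, 0.10 and -0.40 with TMM factors and 0.36, -0.13, 0.092 and -0.40 with median-of-ratios factors. With the 3 symbols outside the rule the first 3 were 0.33, -0.091 and 0.10, and without *Cyp2e1*, an alternative chosen after seeing the data, all 4 were 0.78, 0.23, 0.18 and -0.38, which reverses the second. The 12 members whose CORT change differed between genotypes by 1 or more became 14 with TMM and 13 with median-of-ratios factors. Of 136 log2 changes of members named by the stated rule, 2 crossed the 2-fold line with TMM factors, 2 with median-of-ratios factors, 6 with 0.1 CPM added and 1 with 1 CPM added. This tally leaves out members named only to complete a count, such as *Cyp1a1* and *Cyp2j9*. Of these, *Cyp2j9* drops below 2-fold under vehicle with TMM factors, as given above. No paired analysis was possible because each group had 1 library, and for the same reason no library could be left out. The counts per library limit mainly the 14 members under 10 CPM, and transcripts that share sequence depend on how reads were assigned.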

Other observations

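Genes outside the families that AHR is known to activate were read beside *Cyp1a1*, *Cyp1a2* and *Cyp1b1*. *Tiparp*, a negative regulator of AHR, stood at 4.21 CPM in GRf/f vehicle, 13.2 CPM in GRf/f CORT, 5.92 CPM in GRmKO vehicle and 7.49 CPM in GRmKO CORT liver, and *Nqo1*, a quinone reductase, at 3.15, 7.28, 6.00 and 8.71 CPM. Both were past 2-fold with CORT in GRf/f mice, with log2 changes of 1.54 and 1.09, and neither was in GRmKO mice, at 0.31 and 0.50, while *Cyp1a2* fell in both genotypes. Whether the genotypes differ was not tested. *Ahrr*, the AHR repressor, was under 1 CPM in all 4 libraries.

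The transcripts of the members differ in how far they can be told apart. Of the 55, 23 hold at least 90% of their 31-base words alone, among them *Cyp2c23* (100%), *Cyp4a14* (98.5%), *Cyp2e1* (94.4%), *Cyp1a2* (92.0%) and *Cyp2c29* (91.6%). A further 17 hold less than 60% alone. *Cyp2b10* holds 80.0% and *Cyp3a11* 67.6%.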
